A study of Mus musculus with 5 samples.

Results

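Heat shock chaperones were examined in WT and Atxn1L null HSCs through 22 probe sets of 8 genes, those that the array annotation assigns to exactly 1 of the 10 listed genes, out of 45037 probe sets in all. The genes are Hspa1a, Hspa1b, Hsp90aa1, Hsph1, Dnajb1 and Hspb1, whose transcription heat and other stress raise, and Hspa8 and Dnaja1, which are abundant in unstressed cells. Hsp90ab1 and Hsf1 were not analysed here, since the annotation used names no probe set for them. RNA came from 3 pools of WT HSCs and 2 pools of HSCs from mice with the Atxn1L null allele, all C57Bl/6 and 6 to 8 weeks old by the sample labels, without culture or treatment of the cells named there. The cells were sorted from bone marrow as lineage-negative, c-Kit+, Sca-1+, CD150+ cells of the side population, which exports Hoechst dye. The sources used here do not say how many mice went into a pool. Values are log2 GCRMA values, in which a step of 1 is a doubling of signal, and levels of different probe sets are not comparable with each other.

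Molecular chaperones of the Hsp70 and Hsp90 families bind unfolded or unstable proteins and use ATP to fold, hold or hand them on. J-domain proteins such as Dnajb1 and Dnaja1 bring clients to Hsp70 and start its ATP hydrolysis, Hsph1 of the Hsp110 group exchanges its nucleotide, and small heat shock proteins such as Hspb1 hold unfolded proteins without ATP. Under proteotoxic stress the transcription factor Hsf1 binds heat shock elements, inverted repeats of the unit GAA, in front of the inducible genes. Quiescent HSCs are known for a low rate of protein synthesis and for poor tolerance of unfolded protein.

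The inducible Hsp70 genes lie side by side on chromosome 17, and their promoters show how close the copies are. The following lines give the 150 bases in front of the annotated start site from RefSeq (build GRCm38.p6), 5′ to 3′ on the gene's strand, with every GAANNTTC or TTCNNGAA in capitals, where N is any base. They are shown for the members whose window holds such a motif, so that the gene called lower, Hspa1b, can be set beside the others.
Hspa1b (chr17:34959239-34959388, minus strand): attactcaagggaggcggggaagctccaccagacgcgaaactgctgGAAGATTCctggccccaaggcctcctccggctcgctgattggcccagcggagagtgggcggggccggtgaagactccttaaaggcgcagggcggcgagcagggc
Hspa1a (chr17:34972157-34972306, minus strand): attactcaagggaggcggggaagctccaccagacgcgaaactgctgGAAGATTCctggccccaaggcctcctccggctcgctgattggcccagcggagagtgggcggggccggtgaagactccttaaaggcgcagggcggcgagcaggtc
Hspb1 (chr5:135887769-135887918, plus strand): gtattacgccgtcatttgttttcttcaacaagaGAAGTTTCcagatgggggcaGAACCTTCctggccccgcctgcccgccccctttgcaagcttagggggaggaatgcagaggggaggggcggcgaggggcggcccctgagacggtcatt
Hsph1 (chr5:149636337-149636486, minus strand): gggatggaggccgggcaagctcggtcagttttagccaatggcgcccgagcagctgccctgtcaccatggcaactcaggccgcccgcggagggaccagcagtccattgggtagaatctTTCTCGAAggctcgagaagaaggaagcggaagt
Dnaja1 (chr4:40722318-40722467, plus strand): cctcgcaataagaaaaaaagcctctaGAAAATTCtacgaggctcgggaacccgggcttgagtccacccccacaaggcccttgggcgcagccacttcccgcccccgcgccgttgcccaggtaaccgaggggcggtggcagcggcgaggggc

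The promoter table held 6 of the 10 listed genes. Hspa1a and Hspa1b matched at 247 of 250 bases upstream of the start site (98.8%), and in each a GAANNTTC began 104 bases before it. Hspb1 had a GAANNTTC at 117 and at 97 bases before the start, Dnaja1 at 124 bases before the first of its annotated starts, and Hsph1 a TTCNNGAA at 33 bases before its outermost start, with an overlapping pair of motifs, 1 of each kind, after that start. Dnajb1 had neither motif in its windows of 300 bases. Both motifs read the same on either strand, and 15.1% of all 32851 promoter windows of this length held at least 1 of them. The overlapping pair in Hsph1 makes a run of 3 units. Such a run was in 0.603% of all windows and in those of no other member in the promoter table. The genes with a motif in the window include Hspa1b, which was called lower in Atxn1L null HSCs by the p before adjustment and the fold. They also include Hspa1a, which read lower on average without being called, and Hspb1, Hsph1 and Dnaja1, which were not called. How far probes of Hspa1a and Hspa1b can be told apart is not known.

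Hspa1b, a stress-induced Hsp70, was called lower in Atxn1L null HSCs on all 3 of its probe sets, where 1.25% of all probe sets were called lower and 2.38% in either direction. On the brightest, 1452318_a_at, the WT arrays gave 7.11, 8.05 and 7.97 and the null arrays 6.76 and 6.56. Both null pools lay below every WT pool, with the first WT pool closest to them. The WT mean was 7.71 ± 0.52 (SD, n = 3) and the null mean 6.66 ± 0.14 (SD, n = 2), a fall of 2.07-fold (-1.05 on the log2 scale, SE 0.35, 95% confidence interval -2.05 to -0.05, adjusted p = 0.850 from limma). On 1427127_x_at the WT arrays gave 6.68, 6.83 and 7.54 and the null arrays 6.15 and 5.91, a fall of 1.99-fold (-0.99 on the log2 scale, SE 0.31, adjusted p = 0.819 from limma). On 1427126_at the WT arrays gave 5.32, 5.13 and 5.99 and the null arrays 4.08 and 4.36, a fall of 2.40-fold (-1.26 on the log2 scale, SE 0.32, adjusted p = 0.653 from limma). The genotypes did not overlap on any of the 3 probe sets, and the gap between the lowest WT and the highest null value was 0.35, 0.54 and 0.77 in the order given, where 14.2% of all probe sets had genotypes that did not overlap. Both shares are higher among brighter probe sets. Of the 12936 with a mean of at least 5 in either genotype, 525 were called lower and 4275 had genotypes that did not overlap. In RNA of pooled cells, fewer cells that carry the transcript and less transcript per cell cannot be told apart.

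These calls use the p of 0.05 and the fold of 1.5 that the study's text names as limits. Beside those limits the study does not say whether the p is adjusted, while its methods mention a correction for false discovery. The p was read here as the one before adjustment. None of these calls passed after Benjamini-Hochberg adjustment over all 45037 probe sets. With 1 array left out in turn the difference was -0.73 or lower on all 3 probe sets, but no probe set of the gene was called without the first null array. The call on 1452318_a_at ended also without the second or the last WT array or the second null array, that on 1427127_x_at without the second array of either genotype, and that on 1427126_at without the first WT or the second null array. The same 2 null pools read low at the 5′ end of a control transcript: the 5′ probe set of Gapdh read 6.03, 6.02 and 6.11 in WT and 4.63 and 4.78 in null pools, while its 3′ probe set read 11.99 in WT and 11.98 in null pools on average. Which part of Hspa1b its probe sets read is not known from the annotation, and the part of transcript coverage in the fall was not tested.

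**Figure D1:**
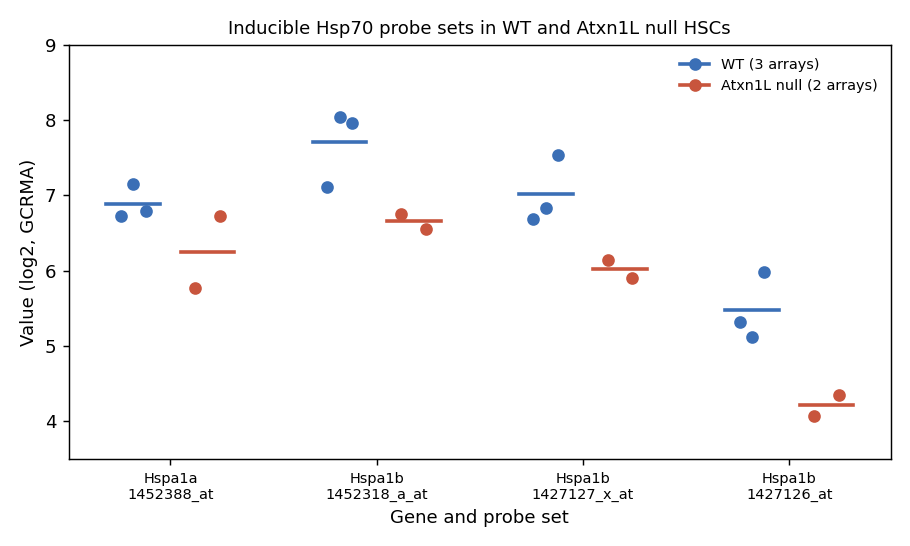
Log2 GCRMA values (vertical axis) of the 4 probe sets of Hspa1a and Hspa1b (horizontal axis), with points for single arrays and bars for the genotype means. The Atxn1L null points lie below every WT point on the 3 Hspa1b probe sets, while on the Hspa1a probe set the second null array equals the first WT array at 6.73.

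Hspa1a, the neighbouring copy, read lower on average but did not pass the criterion. Its only probe set, 1452388_at, gave 6.73, 7.15 and 6.79 on the WT arrays and 5.77 and 6.73 on the null arrays. The first null pool was low, and the second had the same value as the first WT pool, so that the genotypes overlapped. The log2 difference was -0.64 (standard error 0.35, 95% confidence interval -1.64 to 0.36; limma adjusted p = 1), which reaches the fold without the p. Without the second null array it was -1.12 and the probe set was called, and without the first it was -0.16. With array weights in the fit it was -0.90 and the probe set was called as well, which made 4 called among the 22. How far probes of 1 copy also detect the other is not known from the files. The suffix of 1427127_x_at marks probes that can match other transcripts, and the values of Hspa1a and Hspa1b are therefore uncertain as readings of the single genes.

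Hsp90aa1, the stress-inducible form of cytosolic Hsp90, did not fall with Hspa1b. Its brightest probe set, 1438902_a_at, gave 12.32, 12.69 and 12.42 on the WT arrays and 12.81 and 12.70 on the null arrays. Both null pools lay above the WT pools, but the second by only 0.003. The log2 difference was 0.27 (standard error 0.13, 95% confidence interval -0.11 to 0.65; limma adjusted p = 1). The next in brightness, 1437497_a_at, differed by 0.30 with genotypes that overlapped, and this difference was -0.16 without the first null array. The remaining 3 probe sets of the gene were dim, with means below 5 in both genotypes, and differed by -0.25, 0.18 and -0.004.

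Hsph1, the Hsp110 nucleotide exchange factor of Hsp70, gave 9.36, 9.40 and 9.64 on the WT arrays and 9.99 and 9.76 on the null arrays on its brighter probe set, 1425993_a_at. All null values were above all WT values. The difference of 0.41 (standard error 0.13, 95% confidence interval 0.05 to 0.77; limma adjusted p = 0.808) is a fold of 1.33, below the fold that the criterion asks for. Its other probe set, at 2.90 in WT HSCs, was dim.

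Dnajb1, a J-domain partner of Hsp70 that stress induces strongly, did not pass on either of its probe sets. On 1416755_at the WT arrays gave 13.30, 13.24 and 13.39 and the null arrays 13.04 and 13.34. The values overlapped, with the first null pool the lowest of the 5. The difference was -0.12 with a 95% confidence interval of -0.43 to 0.20, which lies within a 1.5-fold change either way, as did that of its second probe set, at 6.00 in WT and 6.10 in null HSCs. Hspb1, the small heat shock protein Hsp25 of mice, was dim on both of its probe sets, with means of 3.59 in WT and 3.46 in null HSCs on 1 and single arrays between 3.98 and 4.02 on the other.

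**Figure D2:**
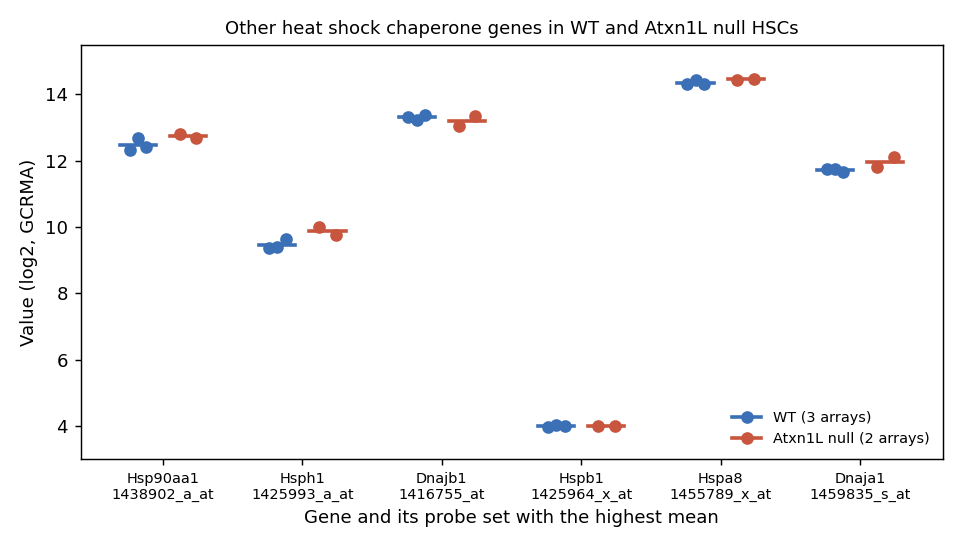
Log2 GCRMA values (vertical axis) of the other 6 heat shock chaperone genes, each on its probe set with the highest mean (horizontal axis), with points for single arrays and bars for the genotype means. None of the 6 passed the criterion, and Hspb1 read 3.98 to 4.02 on every array.

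None of the 7 probe sets of the constitutive chaperones was called, and 6 of the 7 differences were above 0. Of the 12936 probe sets that are not dim, 7.44% were called and 6624 differences were above 0. The 7 read only Hspa8 and Dnaja1, so they are not 7 separate results. Hspa8, the constitutive Hsc70 that folds new proteins and uncoats clathrin vesicles, gave 14.31, 14.42 and 14.32 on the WT arrays and 14.44 and 14.47 on the null arrays on its brightest probe set, 1455789_x_at. The null pools were above the WT pools by a gap of 0.02. The difference was 0.10 (standard error 0.04, 95% confidence interval -0.02 to 0.22; limma adjusted p = 1). Its other probe sets differed by 0.14, -0.01 and 0.31, and for 3 of the 4 the 95% confidence interval lay within a 1.5-fold change either way.

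Dnaja1, a J-domain co-chaperone of Hspa8 that heat also raises, gave 11.76, 11.76 and 11.65 on the WT arrays and 11.81 and 12.13 on the null arrays on its brightest probe set, 1459835_s_at. The null pools lay above the WT pools, the first by 0.05. The difference was 0.24 (standard error 0.11, 95% confidence interval -0.08 to 0.57; limma adjusted p = 1). On 1460179_at the WT arrays gave 8.86, 8.89 and 8.40 and the null arrays 9.29 and 9.24, all null values above all WT values, and the difference of 0.55 was a fold of 1.47 (limma adjusted p = 0.850). The last, 1416288_at, differed by 0.42 and was called higher without the second null array, at 0.72.

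**Figure D3:**
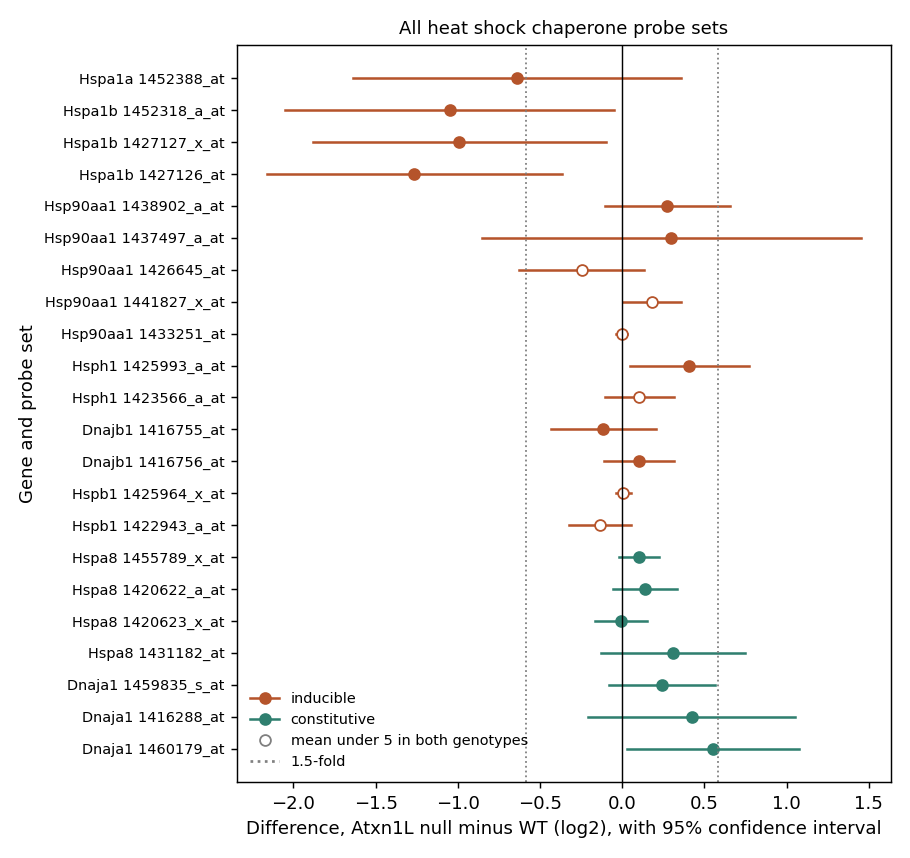
Log2 difference, Atxn1L null minus WT (horizontal axis), of all 22 heat shock chaperone probe sets (vertical axis), a point with its 95% confidence interval from limma. The 3 Hspa1b intervals lie below 0, and the 7 constitutive probe sets differ by -0.01 to 0.55.

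Over all 22 probe sets, 3 were called, all lower in null HSCs and all of Hspa1b (13.6%), where 2.38% of all 45037 probe sets were called, 1.25% lower and 1.13% higher. These 3 read 1 gene and share its transcript, so they are not 3 separate results. By p alone 6 passed, 3 in each direction, against 5.59% of all, and after adjustment 0 passed, against 0.00222%. Counted by gene on the brightest probe set, 1 of 8 was called, against 3.00% of 18193 genes, of which 1.43% were called lower and 1.57% higher. The null and WT values did not overlap on 12 of the 22, against 14.2% of all probe sets, 7 with the null pools above the WT pools (6.75% of all) and 5 with them below (7.50% of all). For 6 of these 12 the gap between the genotypes was below 0.05. Brightness bears on such counts: of the 12936 probe sets that are not dim, 16 of the 22 among them, 7.44% were called. Genotypes did not overlap on 4275 of these 12936 and on 9 of the 16. Of the 3 called probe sets, 1427126_at is among these 16 only through its WT mean.

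The differences of the inducible class pointed both ways. Its 15 probe sets had a median difference of -0.004, beside -0.003 over all probe sets, with 7 above and 8 below 0. The 4 probe sets of Hspa1a and Hspa1b had a median of -1.02, and the other 11 inducible ones a median of 0.10, with none called. Of these 11, 6 were dim. The 5 that were not dim had a median of 0.27, with 4 above and 1 below 0. The constitutive class, in which no probe set was dim, had a median of 0.24, with 6 of 7 probe sets above 0. That median was 0.12 with Dnaja1 left out and 0.0899 without the second null array. The class medians are given as descriptions, since the members were chosen with results of these arrays known.

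The genes around these chaperones were read from 8 further lists, each gene on its probe set with the highest mean, and 4 of 72 measured genes passed the criterion, 3 higher and 1 lower, against 3.00% of all genes. None of 6 further heat shock factors and regulators passed, and 5 of them were dim. Hsbp1, which binds Hsf1 and restrains it, had means of 8.69 (WT) and 8.83 (null), and the brightest of the others, Hspbap1, was dim as well. None of 8 other Hsp70 and Hsp110 genes passed, with Hspa4, a nucleotide exchange factor, at 12.66 and 12.63 and Hspa4l at 9.24 and 8.86. None of 9 other small heat shock protein genes passed, and all but Hspb11 and Hspb8 were dim.

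Of 14 other J-domain genes, 1 was higher. Dnajc2, which recruits Hsp70 to the ribosome, rose from 8.40 ± 0.10 (SD, n = 3) to 9.01 ± 0.07 (SD, n = 2) on 1417657_s_at (log2 difference 0.61, standard error 0.08; limma adjusted p = 0.346). Its probe set 1448794_s_at was called in the opposite direction, from 8.77 to 8.01 (log2 difference -0.76), so the direction of the gene depends on the probe set. The call on 1417657_s_at ended without the last WT array or the first null array.

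Among 10 co-chaperones of Hsp70, 1 rose and 1 fell. St13, which steadies the ADP-bound form of Hsp70, gave 7.73, 8.52 and 7.92 on the WT arrays and 8.98 and 8.91 on the null arrays, a rise of 1.85-fold (0.89 on the log2 scale, SE 0.27, adjusted p = 0.801 from limma). A second bright probe set of St13 differed by 0.21 and was not called. Bag5, of the BAG family of nucleotide exchange factors, gave 9.10, 8.34 and 8.76 on the WT arrays and 7.96 and 7.94 on the null arrays, a fall of 1.72-fold (-0.78 on the log2 scale, SE 0.25, adjusted p = 0.828 from limma). Each of these calls ended without the first or the last WT array or without either null array.

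None of 10 measured co-chaperones of Hsp90 passed. Chordc1 had means of 13.08 (WT) and 12.80 (null) and Ahsa2, of the family that stimulates the ATPase of Hsp90, 9.13 and 9.51. None of 7 mitochondrial chaperone genes passed, with Hspe1 at 12.74 and 12.79 and Hspd1, its partner chaperonin, at 12.75 and 12.76.

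Of the 8 subunits of the cytosolic chaperonin CCT, which folds actin and tubulin, 1 was higher. Cct4 gave 12.26, 12.59 and 12.22 on the WT arrays and 13.16 and 12.95 on the null arrays, a rise of 1.62-fold (0.70 on the log2 scale, SE 0.15, adjusted p = 0.603 from limma). Another bright probe set of Cct4 was called as well, at 0.89, and 1415867_at differed by 0.47 without reaching the fold. The call ended without the first WT array or the first null array.

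**Figure D4:**
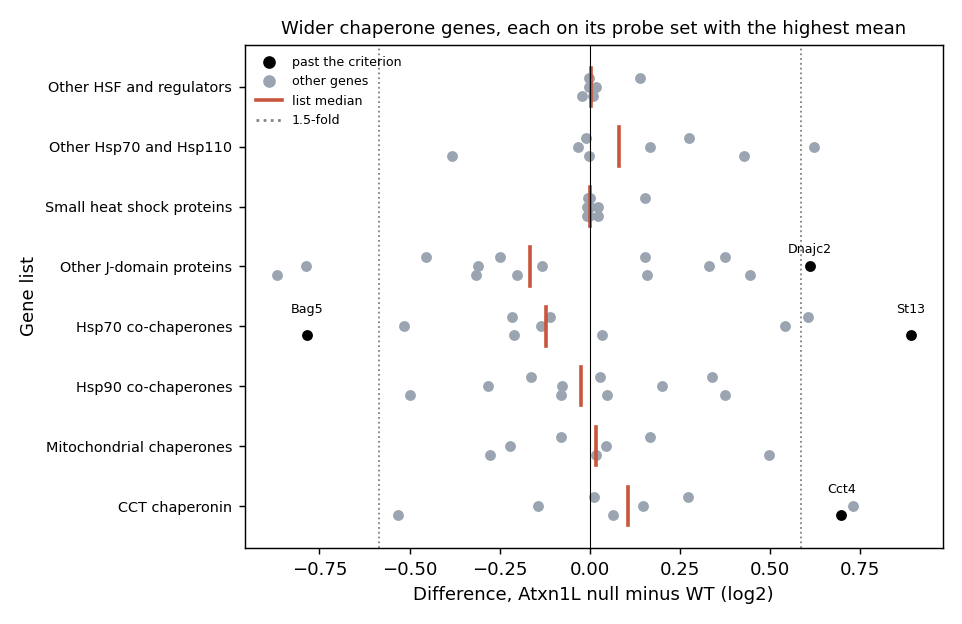
Log2 difference, Atxn1L null minus WT (horizontal axis), of 72 further chaperone genes in 8 lists (vertical axis), a point per gene on its probe set with the highest mean and a bar at each list's median. Dnajc2, St13, Cct4 and Bag5 passed the criterion, and the list medians lie between -0.17 and 0.11.

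Heat shock genes are often read together with the immediate early genes, which respond to handling and sorting of cells. Of 20 such genes 1 passed (5%), against 3.00% of all genes on their brightest probe set. Ier2, an immediate early nuclear protein, gave 9.32, 9.004 and 9.46 on the WT arrays and 7.99 and 7.95 on the null arrays, a fall of 2.44-fold (-1.29 on the log2 scale, SE 0.15, adjusted p = 0.346 from limma), and this call held without any 1 array. The median of the list was -0.15, with 7 differences above 0 and 13 below, and none of the other genes in it passed. All null values lay above all WT values for 3 of the 20 genes and below them for 5, against 1663 and 1519 of all 18193 genes. Dusp1, at 0.67, and Fosl2, at 0.61, were among those above and reached the fold without the p. Fos had means of 7.61 (WT) and 7.63 (null), Jun 8.68 and 8.42, and Egr1, with all null values below all WT values but a fold of 1.23, 7.87 and 7.57. The part of cell handling in the level of Hspa1b was not tested.

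By root mean square distance of values centred on the mean of the 5 arrays, the profiles nearest to the brightest Hspa1b probe set among 18185 genes outside the list were those of H2aw (0.235), Kbtbd8 (0.236) and Foxa3 (0.241), where the profile of Hspa1b itself has a root mean square of 0.614. H2aw is a histone gene, with means of 9.22 (WT) and 8.38 (null), Kbtbd8 a substrate adaptor of cullin ubiquitin ligases and Foxa3 a forkhead transcription factor.

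Atxn1l, the targeted gene, fell by 2.62 on the log2 scale on its brightest probe set, with WT arrays at 6.80, 6.69 and 4.98 and null arrays at 3.08 and 3.99. Of 10 measured HSC markers none passed, against 3.00% of all genes on their brightest probe set. Of these 10 differences 7 were below 0, as were those of 9934 of all 18193 genes. Procr, the brightest of the 10 markers, had means of 13.57 (WT) and 13.39 (null). Meis1, a homeobox factor, gave 11.71, 11.93 and 11.92 on the WT arrays and 11.56 and 11.23 on the null arrays, all null values below all WT values, with a difference of -0.46 that did not reach the fold (1.37-fold, limma adjusted p = 0.767). Its part in the values of Hspa1b was not tested. The brightest markers of other cell types were Tfrc (erythroid), Pf4 (megakaryocyte), S100a8 (granulocyte and monocyte), Vpreb1 (B cell), Nkg7 (T and NK cell) and Vcam1 (stromal). In the same order, 6 of 7, 4 of 7, 1 of 10, 4 of 6, 5 of 6 and 6 of 8 measured genes of these lists were dim. None of the 44 measured markers of these cell types passed, against 3.00% of all genes, and 26 were dim. The summed linear signal of the 10 granulocyte and monocyte markers ran from 30424 to 55132 in WT and was 53975 and 32722 in null pools, so that it overlapped between the genotypes.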

How the data were processed

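The deposited table holds log2 values that the authors made with GCRMA (background correction, quantile normalization and summarization of Affymetrix mouse arrays; version not given in the sources used here) from RNA amplified by T7-based in vitro transcription. The log base is not stated, and log2 was taken from their range. Array medians ran from 3.03 to 3.07. The number of arrays limits the precision, and the study calls the arrays biological replicates, with HSCs pooled for each, while the number of mice per pool is not given.

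After 64 Affymetrix control probe sets had been left out, a mean per genotype was fitted to 45037 probe sets with limma 3.58.1 in R 4.3.3 (lmFit and eBayes, default settings), and p-values were adjusted by the Benjamini-Hochberg method over all of them. No dim probe set was removed. Genes were named from the platform's annotation, where 34945 probe sets have 1 gene, 932 several and 9160 none. The fit was tested on simulated data, with 200 probe sets changed in each run. Of these, 43% were called in the right direction at a true log2 difference of 0.585 and 89% at 1. From 318 to 367 of 44837 unchanged probe sets were called. The noise was drawn independently with the WT spread for both genotypes, so the 5′ readings of the null pools were not modelled.

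The members and lists were chosen with earlier results of these data known. All measured members are described on all their probe sets, with identifiers for some. Named besides are the called genes of each further chaperone list and of the immediate early list or, where none was called, the 2 brightest, the brightest gene of each marker list, and the 3 profiles nearest to Hspa1b. Fos, Jun, Egr1, Dusp1, Fosl2, Meis1 and the other probe sets of called genes were added after their values were seen. Dim means a mean below 5 in both genotypes. Promoter sequences are those of RefSeq (GRCm38.p6), and a comparison of protein sequences was not made here. Also run were eBayes with a trend and robust settings, weights per array, quantile normalization anew, centring on array medians, and the fit without dim probe sets or without those of the suffixes _x_at, _s_at and _a_at. Further runs used stricter and looser criteria, 1 or averaged probe sets per gene, a block for replicate number, and the fit without each array.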

Additional observations from a re-analysis of the deposited data

How the results depend on the processing

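Without probe sets of the suffixes _x_at, _s_at and _a_at, 1 of the 9 heat shock chaperone probe sets left was called. Whether the _a_at probe sets among those removed share probes with other genes was not tested. That filter also removed the brightest probe set of Hspa1b, 1452318_a_at. The number of heat shock chaperone probe sets called, 3, was 4 with array weights, 0 at an adjusted p under 0.05 and 6 at an unadjusted p alone, 3 lower and 3 higher. With 1 array left out in turn it ran from 0 to 2. The difference of Hspa1b on its brightest probe set was -1.04 after renewed quantile normalization, where it missed the p, and ran from -1.35 to -0.88 with 1 array left out. Over all probe sets 1074 were called, 1 at an adjusted p under 0.05, 2517 at a p alone, 2286 at a fold alone, and 709 to 1948 with 1 array left out. The median of the inducible probe sets was -0.12 without dim probe sets, a filter that 1427126_at of Hspa1b passes only through its WT level. Filtered by the mean over all arrays instead, an alternative chosen after seeing the data, which leaves that probe set out, it was -0.006. It was -0.18 without the probe sets of these 3 suffixes and -0.12 without Hsp90aa1. The median of the constitutive ones was 0.42 without those suffixes, 0.17 with 1 probe set per gene, 0.12 without Dnaja1, and 0.0899 to 0.26 with 1 array left out.

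The deviations of WT and null arrays with the same replicate number correlated at -0.03 and -0.26 across probe sets. With only 2 null arrays their deviations mirror each other, so these values cannot show whether the arrays were paired. With the replicate number as a block, 1 heat shock probe set was called, and the brightest probe set of Hspa1b differed by -0.92 without passing. The calls of Dnajc2, St13, Bag5 and Cct4 were lost with array weights, under the replicate block and with averaged probe sets per gene. That average takes in dim probe sets, which shrink a difference, such as 1432638_at of Bag5, at 1.35 in WT and null HSCs. It also takes in bright ones that disagree, such as 1448794_s_at of Dnajc2, at -0.76, and 1460193_at of St13, at 0.21. Where an array was left out of the null group, the remaining one was assumed to vary like the others. Causes were not tested.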

Other observations

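The protein-coding genes next to Hspa1a and Hspa1b on chromosome 17 are Neu1 on the side of Hspa1b, and Hspa1l and then Lsm2 on the side of Hspa1a. Neu1, the lysosomal sialidase, gave 5.68, 3.99 and 6.18 on the WT arrays and 3.92 and 4.30 on the null arrays, so that the second WT pool lay between the null pools and the genotypes overlapped. Hspa1l, an Hsp70 gene of the testis, had means of 2.49 (WT) and 2.48 (null), and Lsm2 2.77 and 2.78, both near the floor of the scale.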
